A study of Mus musculus with 34 samples.

Results

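BATF binding was compared between regulatory T (Treg) cells and conventional CD4 T (Tconv) cells of the mouse, over every peak of 1 deposited table of chromatin immunoprecipitation and sequencing. The members of the comparison were the 4 BATF libraries of these cells among the 34 samples of the series, 2 from Treg and 2 from Tconv cells, and all 16109 peaks of the table were kept. Both cell types came freshly sorted from spleen and lymph nodes of mice of strain C57BL6/J that carry the Foxp3-IRES-hCD2 reporter, in which the Foxp3 transcript also encodes human CD2 on the cell surface. Treg cells were the CD4+hCD2+ and Tconv cells the CD4+hCD2- fraction, and the labels name no other allele and no treatment for either group. IRF4 libraries from the same 2 kinds of cells, 4 from each, and the positions of 6396 Foxp3 peaks served as further readouts. The Foxp3 table holds 8 libraries, 2 each of Treg cells, of the sorted subsets cTreg (CCR7hiCD62LhiCD44lo) and eTreg (CCR7loCD62Llo), and of Treg cells that also carry Batf-/-. The labels do not say whether the 2 BATF libraries of a group came from separate animals, so p-values measure the spread between these libraries, which may be technical.

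BATF is a basic leucine zipper factor of the AP-1 family. It has no activation domain of its own, pairs with JUN proteins at the AP-1 sequence TGANTCA, and with IRF4 occupies composite sites where AP-1 and IRF letters stand side by side. In CD4 T cells BATF is known for its part in Th17 and T follicular helper differentiation and in effector Treg cells. A peak is an interval in which reads pile up, here 400 bp long for 99.8% of the peaks, and its name is that of the closest protein-coding gene at up to 100000 bp, although it may act on another gene. Positions are given in mm10 as deposited, and whether the starts count from 0 or 1 is not given in the sources used here. The annotation does not separate exons from introns, so a peak inside a gene is given as in the gene body.

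Sequences are shown for gene starts with a called BATF peak, because the AP-1 letters can be read there, and for 2 microRNA genes with higher peaks nearby. These examples were chosen after their values were seen. The stretches are the 250 bases before the annotated start, 5′ to 3′ on the strand of the gene, from the RefSeq promoter table of build GRCm38.p6, the assembly behind mm10. Capitals mark TGANTCA on either strand. The Fas stretch (chr19:34290409-34290658, plus strand) and the Tnfrsf8 stretch (chr4:145315165-145315414, minus strand) lay on peaks that were higher in Treg cells. The Prf1 stretch (chr10:61297586-61297835, plus strand) lay on a peak that was lower and holds no TGANTCA.
Fas: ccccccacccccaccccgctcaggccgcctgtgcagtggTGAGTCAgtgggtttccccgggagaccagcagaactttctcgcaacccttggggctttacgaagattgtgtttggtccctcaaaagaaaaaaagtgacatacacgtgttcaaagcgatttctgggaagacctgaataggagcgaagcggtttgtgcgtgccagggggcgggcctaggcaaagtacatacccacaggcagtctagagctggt
Tnfrsf8: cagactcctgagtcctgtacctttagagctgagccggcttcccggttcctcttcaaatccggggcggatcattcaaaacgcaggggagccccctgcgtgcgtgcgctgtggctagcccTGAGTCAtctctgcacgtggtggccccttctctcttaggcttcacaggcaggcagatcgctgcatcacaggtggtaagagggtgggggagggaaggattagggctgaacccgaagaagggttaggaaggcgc
Prf1: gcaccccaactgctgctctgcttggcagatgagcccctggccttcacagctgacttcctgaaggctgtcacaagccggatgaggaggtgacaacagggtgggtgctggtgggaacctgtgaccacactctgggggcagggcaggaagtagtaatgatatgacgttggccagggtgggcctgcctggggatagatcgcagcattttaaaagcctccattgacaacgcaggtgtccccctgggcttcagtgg
In the mature microRNAs, from the RefSeq table of the same build, capitals mark the seed at bases 2 to 8. The 2 lie at chr16:84714143-84714165 on the plus strand and at chr11:86584120-86584141 on the minus strand.
mmu-miR-155-5p: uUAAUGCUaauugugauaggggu
mmu-miR-21a-5p: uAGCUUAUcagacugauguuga

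The 4 libraries held 1377509 to 2280493 reads in peaks, and 1 read was worth 0.714 to 1.16 of the normalised value that is given below. On the log2 scale libraries of a group correlated at 0.908 (Treg) and 0.921 (Tconv) across peaks, and libraries of different groups at 0.575 at most, as a description across peaks that share depth and scaling. Among marker genes of Treg cells, the 1 peak of Foxp3, all 3 of Il2ra, all 7 of Ikzf2 and 10 of 12 of Ctla4 were higher in Treg cells. Among those of all T cells, the single peaks of Cd3e, Cd3g and Cd4 were not called, 1 of 6 at Cd28 was lower, and Trac had no peak. A peak was called higher or lower in Treg cells at a limma adjusted p under 0.05 over all 16109 peaks. In all, 2395 peaks (14.9%) were called higher and 772 (4.79%) lower, and at every called peak the 2 groups did not overlap. Quantile normalisation, which moved the median over all peaks from -0.03 to -0.13 (log2), gave 2086 higher and 1291 lower, so that 61.8% of its calls were higher against 75.6%. Without peaks below the 25th percentile of the mean value the calls were 1443 and 328.

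Most called peaks lay away from gene starts. In bulk libraries, binding in fewer cells and less binding per cell cannot be told apart. Of all peaks, 8348 (51.8%) were centred within 1000 bp of the start of a protein-coding gene, and these were the stronger peaks, with a median value of 107 against 61.2 elsewhere. Only 212 of them (2.54%) were higher and 180 (2.16%) lower in Treg cells. For genes without a known strand either end was taken as the start. Of the 6892 gene start peaks whose nearest start had a known strand, 155 (2.25%) were higher and 148 (2.15%) lower. Of 4280 peaks in gene bodies 1139 (26.6%) were higher and 340 (7.94%) lower, and of 3478 peaks between genes 1044 (30.0%) were higher and 251 (7.22%) lower. The median log2 fold change was -0.11 at gene starts, 0.16 in gene bodies and 0.22 between genes, against -0.03 over all peaks. At gene starts the balance of the 2 directions depended on the processing. Quantile normalisation gave 166 higher and 330 lower, a pseudocount of 8 gave 221 and 228, and a window of 500 bp gave 143 and 165. Without Treg replicate 1 the counts were 143 and 157, without Treg replicate 2 they were 131 and 151, and centring on the gene start median gave 274 and 69. Leaving out Tconv replicate 2 left 78 lower calls at gene starts, and DESeq2 on recovered reads left 69.

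The share of higher peaks rose with distance in every step from 0.993% of 5236 peaks within 100 bp of a start to 41.9% of 759 peaks beyond 100000 bp. It was 8.97% between 500 and 1000 bp, 14.7% between 1000 and 2500 bp, 29.3% between 10000 and 25000 bp and 35.5% between 50000 and 100000 bp. The share of lower peaks moved less, from 2.44% within 100 bp through 1.07% between 250 and 500 bp to 9.81% between 50000 and 100000 bp. On the deposited scale lower calls (128) outnumbered higher calls (52) within 100 bp of a start, and in each later bin higher calls outnumbered lower ones.

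**Figure D1:**
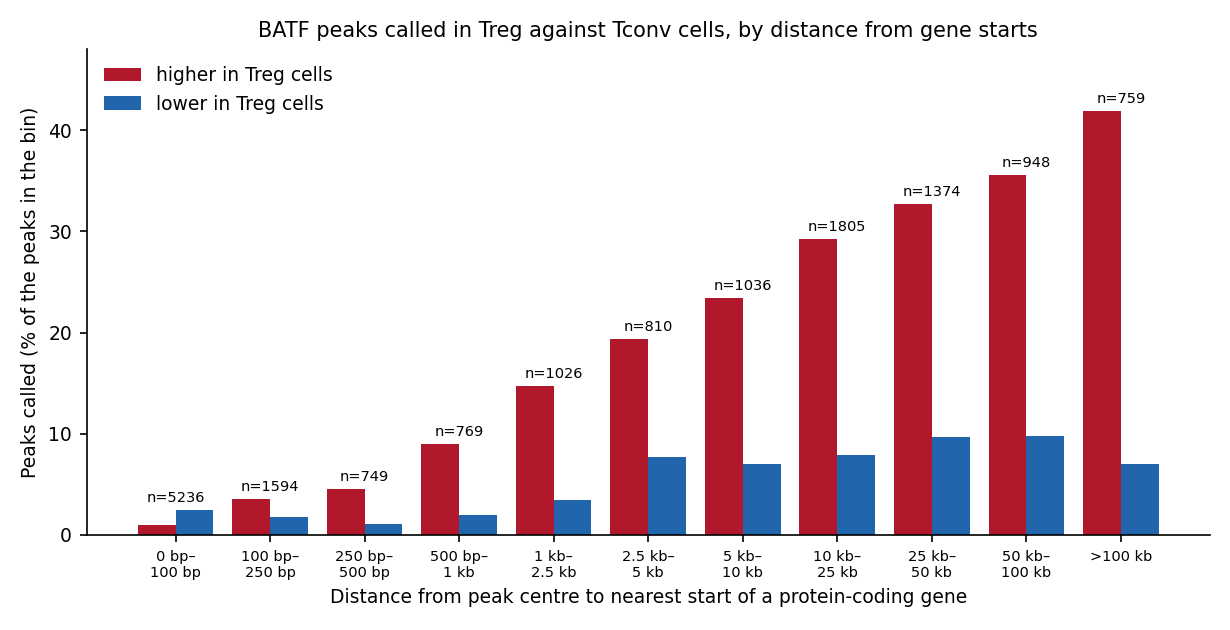
Share of BATF peaks called higher (red) or lower (blue) in Treg cells, in percent of the peaks in each bin, against the distance from the peak centre to the nearest start of a protein-coding gene; n is the number of peaks in a bin. Higher calls climb from 0.993% to 41.9% while lower calls stay under 10%.

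The contrast between positions was present in each of 5 equal groups of peaks by mean value. Among the weakest of these groups 5.43% of those at gene starts and 30.1% of those between genes were higher, and in the strongest group these shares were 1.33% and 41.7%. Lower peaks away from gene starts were mostly weak ones: in gene bodies 13.1% of the weakest and 1.90% of the strongest group were lower, and between genes 12.9% and 0.813%. The strongest peaks of the table were gene starts shared by both cell types. Of the 100 strongest, 82 lay at gene starts, 4 were higher and 10 lower. The 4 higher ones lay near or in Enpp6, Bach2, Tnfaip3 and Dad1, named here after their values were seen. The strongest peak, at the start of Rnf44, a RING finger gene, read 1090.5 and 1537 in the Treg and 1459 and 1767 in the Tconv libraries (limma adjusted p = 0.302). The starts of Aagab, Pafah1b2 and Birc5, the gene of survivin, were also among the 5 strongest. None of these 4 was called by limma on the deposited scale.

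Higher and lower peaks differed in size as well as in number. In Treg libraries 1 and 2 the higher peaks had median values of 105 and 96.0, against 26.7 and 25.7 in Tconv libraries 1 and 2. The lower peaks had medians of 27.0 and 28.2 in Treg and 75.5 and 80.0 in Tconv libraries. Their median distance from a gene start was 21638 bp for higher, 13051 bp for lower and 231 bp for uncalled peaks. Of 6264 strong peaks, those with a mean value of 100 or more, 634 were higher and 170 lower. Among these, 384 of the higher but 15 of the lower peaks differed at least 2-fold. Both Tconv libraries held 3 reads or fewer at 80 of the higher peaks, and both Treg libraries at 12 of the lower ones.

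The strong peaks that Tconv cells preferred lay near genes of varied function. Where values stand in the form A and B against C and D, the first are Treg libraries 1 and 2 and the last Tconv libraries 1 and 2. A peak within Tbcel, a tubulin-binding gene (chromosome 9, 42465645 to 42466045), read 79.8 and 83.6 in the Treg and 182 and 229.9 in the Tconv libraries (log2 fold change -1.32, SE 0.21, limma adjusted p = 0.00021). Inside Strada, which encodes an adaptor of the kinase LKB1 (chromosome 11, 106167440 to 106167840), the peak read 60.1 and 58.7 in the Treg and 138 and 169 in the Tconv libraries, and its log2 fold change was -1.35 (limma adjusted p = 0.000427). At both peaks the Treg libraries agreed closely, and the Tconv libraries were spread more widely and stood above them. A distant peak 84880 bp from Slc9a9, an endosomal sodium-proton exchanger, read 75.7 and 41.8 against 168 and 132.

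Among genes of resting and naive T cells, a peak 7619 bp from Ccr7, the receptor that guides T cells into lymph nodes (chromosome 11, 99136380 to 99136780), read 84.0 and 70.0 in the Treg and 146 and 202 in the Tconv libraries (log2 fold change -1.16, SE 0.23, limma adjusted p = 0.00138). At 12980 bp from Actn1, an actin-crosslinking gene, the values were 69.5 and 84.7 against 149 and 189 (limma adjusted p = 0.00153). The groups did not overlap at either peak.

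On the deposited scale, falls at strong gene start peaks were modest. The largest fall among strong ones lay 720 bp from the start of Slfn5, a Schlafen family gene (chromosome 11, 82952622 to 82953022), with 58.0 and 66.6 in the Treg and 129 and 181 in the Tconv libraries (log2 fold change -1.28, SE 0.24, limma adjusted p = 0.00093). At the start of Klhdc9, a kelch-domain gene, the values were 68.4 and 76.8 against 177 and 134 (log2 fold change -1.08, limma adjusted p = 0.00245). Among gene start peaks below a mean of 100, Klc1, a kinesin light chain gene, read 63.2 and 51.9 against 105 and 123, and Rnf32 read 48.7 and 65.5 against 110.3 and 116. Under at least 1 alternative the adjusted p of these last 2 peaks was above 0.05, up to 0.0961 and 0.0801.

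Rises among strong peaks were several times larger. A peak within Osbpl3, an oxysterol-binding protein gene (chromosome 6, 50393857 to 50394257), read 301 and 281 in the Treg and 11.6 and 11.4 in the Tconv libraries (log2 fold change 4.54, SE 0.29, limma adjusted p = 8.8e-08). Within Socs5, a suppressor of cytokine signalling (chromosome 17, 87118863 to 87119263), the values were 281 and 197 against 13.9 and 7.85 (log2 fold change 4.36, SE 0.35, limma adjusted p = 5.79e-07). Near Ncoa2, a nuclear receptor coactivator, they were 251 and 305 against 22.1 and 5.00. In all of these the lowest Treg library exceeded the highest Tconv library many times over. The largest fitted rise lay 6489 bp from Emsy, a chromatin regulator, where the values were 259 and 181 against 1.16 and 2.86 and the Tconv libraries held 1 and 4 reads, too few for a fold. Peaks within Nfil3 (232 and 233 against 18.6 and 1.43) and near Bhlhe40 (242 and 166 against 3.48 and 10.7), both transcription factor genes, rose likewise.

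**Figure D2:**
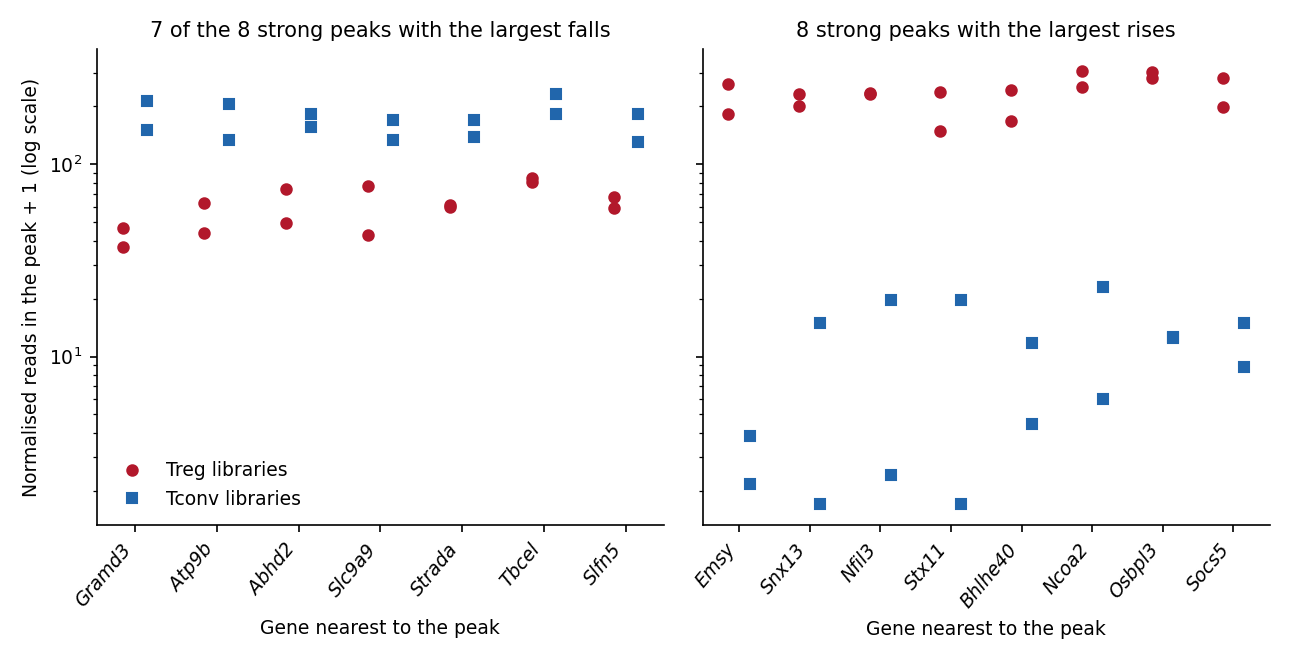
Normalised reads plus 1 in each of the 4 libraries (log axis) for 7 of the 8 strong peaks with the largest falls (left) and the 8 with the largest rises (right), named by the nearest gene. Treg libraries are red circles and Tconv libraries blue squares; at the falls Treg values lie between 36.1 and 83.6, while at the rises several Tconv values lie under 10.

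Rises at gene starts were fewer than elsewhere, and the strongest of them were large. Near the start of Fam110a (chromosome 2, 151974090 to 151974490) the peak read 341 and 254 in the Treg and 31.4 and 16.4 in the Tconv libraries (log2 fold change 3.64, SE 0.30, limma adjusted p = 5.84e-07). At Rnf157, a ubiquitin ligase gene, it read 240.5 and 174 against 37.2 and 38.6. Tnfrsf8, which encodes the TNF receptor CD30 and whose promoter letters are shown above, had a peak 110 bp from its start with 215 and 137 in the Treg and 45.3 and 22.9 in the Tconv libraries (log2 fold change 2.37, SE 0.33, limma adjusted p = 5.18e-05). At Fas, the death receptor gene, the peak 220 bp from the start read 193 and 199 in the Treg and 90.6 and 70.0 in the Tconv libraries (log2 fold change 1.29, SE 0.21, limma adjusted p = 0.000296). The gene start of Prf1, which encodes perforin, held few reads and was lower in Treg cells, at 6.22 and 12.4 against 49.9 and 30.7 (limma adjusted p = 0.0138, and up to 0.0684 over the alternatives).

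The AP-1 letters were unevenly spread over these promoters. TGANTCA, read on both strands, was present in 17 of 97 promoter windows (17.5%) on higher peaks, in 8 of 140 (5.71%) on lower peaks and in 223 of 5554 (4.02%) on uncalled peaks. A window spanned 250 bp before to 50 bp after the start and overlapped the peak by at least 150 bp; of all 32851 RefSeq windows of that length 7.81% hold the letters. Of the 248 windows with the letters 6.85% lay on higher peaks, and of the 5543 without them 1.44%. Median GC content was 57.3% on higher, 60.0% on lower and 62.7% on uncalled peaks, and its part in the difference was not tested. The windows differed in other letters too: the ETS core CCGGAAG stood in 11.3% of windows on higher peaks, 24.3% on lower and 25.7% on uncalled peaks, and TGACGTCA in 5.15%, 3.57% and 4.38%. In Fas the match lay 211 bp and in Tnfrsf8 132 bp before the start. A match is a string of letters and not a measured site.

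Where genes with a changed BATF peak in their surroundings also had a peak at their own start, it was mostly not called, as were most gene start peaks. Of 1285 genes with a higher peak away from gene starts, 791 also had a peak at their own start. That gene start peak was not called in 693 of them (87.6%), higher in 89 and lower in 9. Of 464 genes with a lower peak away from gene starts 276 had a peak at their own start, which was not called in 248 (89.9%), lower in 18 and higher in 10. Over all 8348 gene start peaks 7956 were not called, 212 (2.54%) were higher and 180 (2.16%) lower. Calls in the same direction were thus more frequent at these genes, counted per gene, than over all gene start peaks. The difference was not tested.

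Some genes had BATF peaks that moved in opposite directions. Peaks were assigned to 9245 genes, of which 1397 had a higher and 626 a lower peak. Among the 569 genes with 2 or more called peaks, 409 had only higher ones, 58 only lower ones and 102 had both. Of the genes with a lower peak 16.3% thus also had a higher one, near the share over all genes (1397 of 9245). Of those with a higher peak 7.30% also had a lower one, again near the share over all genes (626 of 9245). The 102 genes with both directions were rich in peaks, with a median of 6 against 2 for all genes with a called peak. They held 177 higher and 150 lower peaks among 707. In 51 of them there was 1 peak in each direction, and in 11 there were at least 2. Their number depended on the processing. It was 23 without peaks below the 25th percentile, 51 with DESeq2, 60 and 56 without Treg replicates 1 and 2, and 64 without Tconv replicate 2.

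Foxp1, a forkhead factor that keeps T cells quiescent, had the most called peaks among the 8 genes of the kind described here, with 7 higher and 3 lower of 25. A peak in its body (chromosome 6, 99050504 to 99050904) read 340.0 and 339 in the Treg and 31.4 and 35.0 in the Tconv libraries (log2 fold change 3.32, SE 0.22, limma adjusted p = 8.8e-08). Another, chromosome 6, 99375408 to 99375808, went the other way with 15.5 and 22.6 in the Treg and 60.4 and 48.6 in the Tconv libraries (log2 fold change -1.48, SE 0.41, limma adjusted p = 0.0155). Without Treg replicate 1 or Tconv replicate 1 this last peak was not called, with an adjusted p of up to 0.0771. The lower peaks of Foxp1 were all weak. Another read 22.8 and 13.6 against 45.3 and 55.7, and the last 20.7 and 27.1 against 55.7 and 53.6.

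Runx1, which encodes a Runt-domain factor that partners with Foxp3, had 3 higher and 3 lower peaks among 7. At its start, 216 bp away, BATF read 144 and 154 in the Treg and 65.0 and 74.3 in the Tconv libraries (log2 fold change 1.09, SE 0.23, limma adjusted p = 0.00187). The next peak into the gene, 4000 bp from the start, read 65.3 and 85.8 in the Treg and 136 and 174 in the Tconv libraries and was lower in Treg cells (log2 fold change -1.03, SE 0.24, limma adjusted p = 0.00409). The following one, 7408 bp from the start, was higher again, at 240.5 and 220.2 against 131 and 85.7. In all 3 the groups did not overlap, and the direction turned between neighbours.

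In Dip2b 2 higher peaks were followed along the chromosome by 3 lower ones. The largest rise was 221 and 195 against 53.4 and 41.4. The largest fall was 12.4 and 4.52 against 108 and 101. Myo10, an unconventional myosin gene, had 2 lower peaks and, further along the chromosome, 2 higher ones. The clearer of the lower peaks read 7.26 and 9.03 against 77.8 and 77.8. Sgms1, a sphingomyelin synthase gene, had a block of 3 higher peaks, the clearest at 93.3 and 117 against 10.5 and 17.9, with lower peaks on either side and 1 further higher peak beyond them. Wwox, an oxidoreductase gene, had 3 lower peaks on one side and 4 higher peaks on the other. The largest fall there was 5.18 and 9.03 against 51.1 and 65.7, and the largest rise 169 and 106 against 32.5 and 24.3. The groups did not overlap at any of these peaks. In Gypc, the glycophorin C gene, and Bicdl1, a dynein adaptor gene, 2 higher and 2 lower peaks likewise formed separate blocks.

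**Figure D3:**
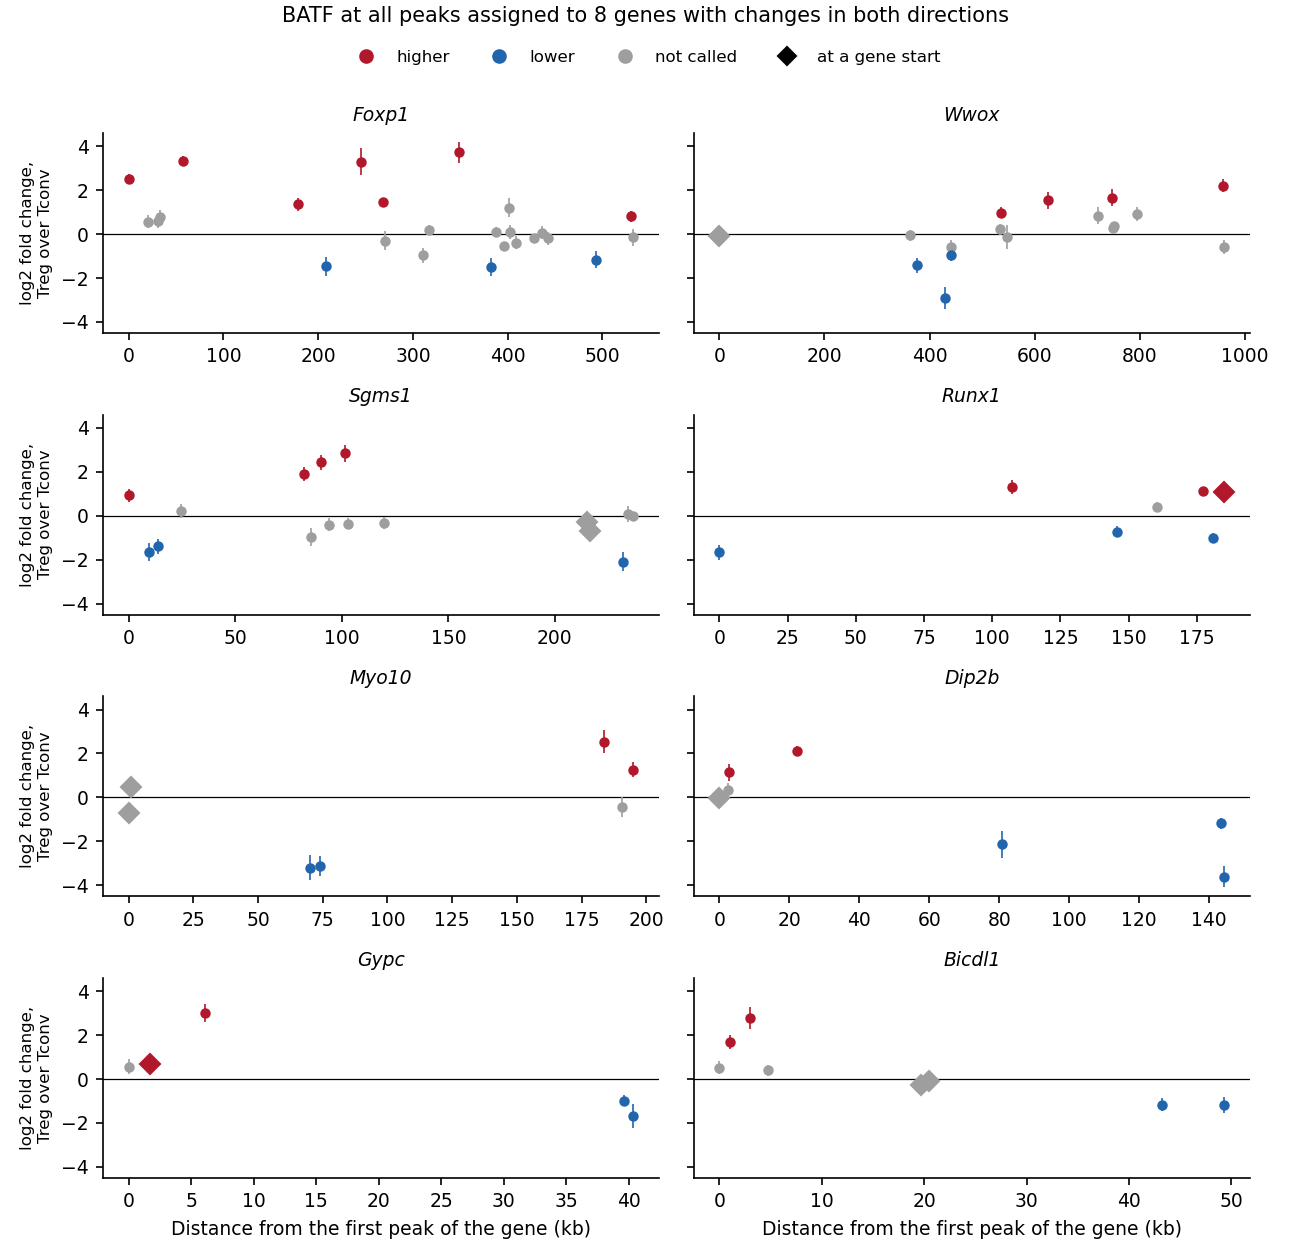
Log2 fold change of BATF in Treg over Tconv cells with its standard error, for all peaks of the 8 named genes with both directions, against the distance in kb from the first peak of the gene along the chromosome. Red marks higher, blue lower and grey uncalled peaks, and diamonds mark peaks at gene starts; higher and lower peaks form separate blocks in Myo10, Dip2b, Gypc and Bicdl1 and alternate in Runx1.

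Other genes had several lower peaks and few or no higher ones. Lef1 had the most lower peaks of any gene, 8 of 20. Fam78a had 5 lower peaks of 9 and Cox10, an assembly factor of cytochrome oxidase, 5 of 7. The largest fall of Cox10 lay 37520 bp away, at 3.11 and 0 against 91.8 and 131, where the Treg libraries held 3 and 0 reads. Inside Fam78a a peak read 12.4 and 19.2 in the Treg and 76.7 and 111 in the Tconv libraries (log2 fold change -2.50, SE 0.39, limma adjusted p = 0.000158). Tgfbr3, which encodes the TGF-beta co-receptor betaglycan, had 4 lower peaks of 5, and the clearest (chromosome 5, 107148298 to 107148698) read 16.6 and 14.7 in the Treg and 77.8 and 77.1 in the Tconv libraries (log2 fold change -2.24, SE 0.38, limma adjusted p = 0.000355). Atp8b4, a phospholipid flippase gene, had 3 lower and 1 higher peak of 4, and its body peak read 3.11 and 5.65 against 77.8 and 102. In St8sia1, the GD3 synthase gene, 4 peaks were lower and 1 higher. The lower peaks of Lef1, a TCF family factor of naive T cells, read at most 28.0 in a Treg library. Of its 8 lower calls 4 were kept in every alternative that tested the peak, and weak peaks were not tested in all of them.

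Neighbouring peaks usually moved together. Called peaks that were next to each other on a chromosome had opposite directions in 1 of 81 pairs (1.23%) within 1000 bp, in 27 of 532 (5.08%) within 10000 bp and in 656 of 1718 (38.2%) beyond 100000 bp. Over all 3146 pairs the share was 27.8%. Within genes that had both directions, the nearest higher and lower peaks were a median of 26100.5 bp apart, with a range from 758 to 484761 bp.

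**Figure D4:**
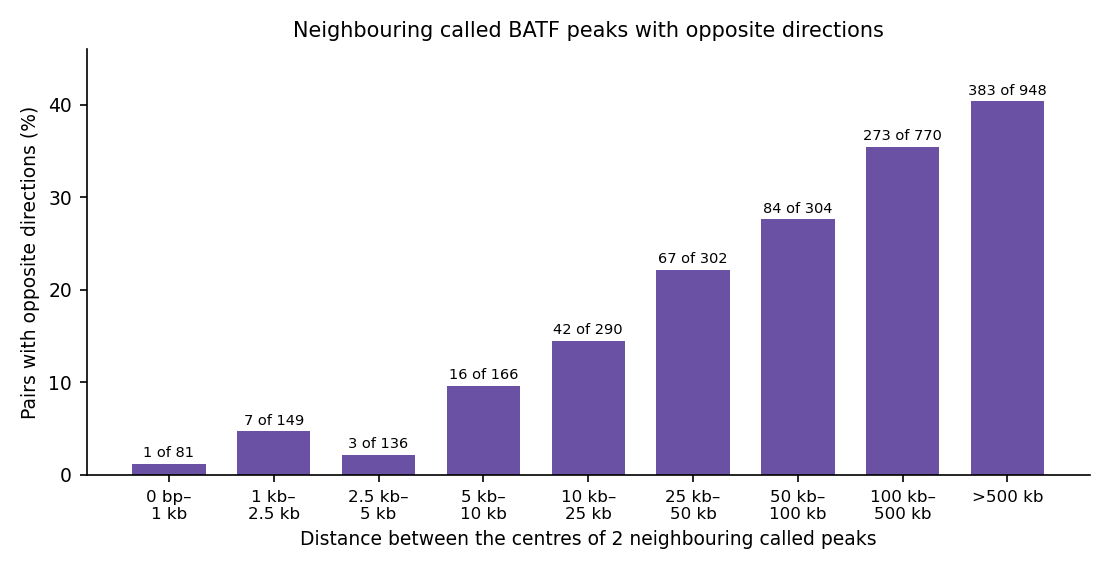
Share of neighbouring called BATF peaks with opposite directions, in percent of the pairs in each bin, against the distance between their centres; the counts stand above the bars. The share goes from 1 of 81 pairs within 1 kb to 383 of 948 beyond 500 kb.

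The closest opposite pairs lay in genes of transcription factors, among others. In Klf13 the centres were 758 bp apart, the lower peak read 28.0 and 19.2 against 47.6 and 60.7, and the higher one 60.1 and 50.8 against 12.8 and 4.28. In Runx3, the factor of the cytotoxic lineage, 1860 bp separated a lower peak (10.4 and 13.6 against 39.5 and 39.3) from a higher one (72.6 and 90.3 against 41.8 and 38.6). Outside Bach2, a repressor that competes with AP-1 factors, at 74069 and 72162 bp from the gene, 1907 bp separated a higher peak (272 and 257 against 148 and 191) from a lower one (18.7 and 18.1 against 56.9 and 40.7). At Tfip11, 1611 bp apart, the gene start was lower (350.4 and 359 against 501 and 519) and the peak beside it higher (101 and 101 against 45.3 and 57.1). In 3 of these 4 pairs both calls were lost in some alternatives. The highest adjusted p of the lower and the higher peak was 0.0744 and 0.198 in Runx3, 0.177 and 0.192 outside Bach2, and 0.183 and 0.0794 at Tfip11. In Klf13 the lower call was lost (0.221), and the higher one was kept wherever it was tested (0.0411).

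IRF4, the partner of BATF, gave a readout from other libraries. In Treg against Tconv cells 1442 of 9134 IRF4 peaks (15.8%) were higher and 766 (8.39%) lower. An IRF4 peak overlapped 71.2% of the higher, 36.4% of the lower and 38.2% of the uncalled BATF peaks. At the 1706 higher BATF peaks with an IRF4 peak, IRF4 was higher in 903 and lower in 1, a peak within Kat2b that was named after its values were seen. edgeR called 894 higher and 2 lower there, and DESeq2 855 and 2. At the 281 lower BATF peaks with one, IRF4 was lower in 157 by limma, 160 by edgeR and 156 by DESeq2. It was higher in 0 by each of these tools and at an unadjusted p under 0.05. In the genes with both directions, IRF4 was higher at 53 (40.2%) and lower at 0 of 132 higher BATF peaks, against 52.9% higher over all higher BATF peaks. It was lower at 38 (69.1%) and higher at 0 of 55 lower ones, against 55.9% lower over all. Those 0 counts were also 0 by edgeR, by DESeq2 and at an unadjusted p under 0.05.

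IRF4 at the lower BATF peaks varied with position. IRF4 was lower at 88 of 119 (73.9%) in gene bodies and at 62 of 98 (63.3%) between genes, but at 7 of 64 (10.9%) at gene starts. That last share was near the 8.39% over all IRF4 peaks and near the 8.81% at gene starts where BATF was not called. The median IRF4 log2 fold change was -1.39, -1.28 and -0.55 in the 3 classes, and -0.27 at uncalled gene starts. BATF itself differed less at these gene starts, with a median of -0.63 against -1.40 in gene bodies and -1.27 between genes (log2). The difference between the classes was not tested.

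At Atp8b4 the lower BATF peak held 2.75 ± 1.21 in Treg and 28.6 ± 10.0 in Tconv cells of IRF4 (SD, n = 4 each). The Treg libraries ran from 1.70 to 4.27, a few reads each, so no fold is given (limma adjusted p = 9.16e-05). At Slfn5 IRF4 was 17.7 ± 1.82 in Treg and 58.8 ± 13.4 in Tconv cells, a change of -1.65 (log2; limma adjusted p = 8.61e-05). It was one of the 7 gene starts at which both factors were lower. In Runx1 all 3 lower BATF peaks were lower in IRF4, and none of the 3 higher BATF peaks was called in IRF4. The changes were -1.01 and -1.20 on the log2 scale at 2 of the lower peaks. At the other, Treg libraries ran from 1.84 to 6.41 and Tconv libraries from 14.9 to 20.8. Within Bach2 a strong BATF peak was higher, at 877 and 743 in the Treg and 264 and 246 in the Tconv libraries (log2 fold change 1.66, SE 0.17, limma adjusted p = 3e-06). IRF4 at that place was 301 ± 42.0 in Treg and 289.7 ± 84.5 in Tconv cells, and it was not called (limma adjusted p = 0.798).

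**Figure D5:**
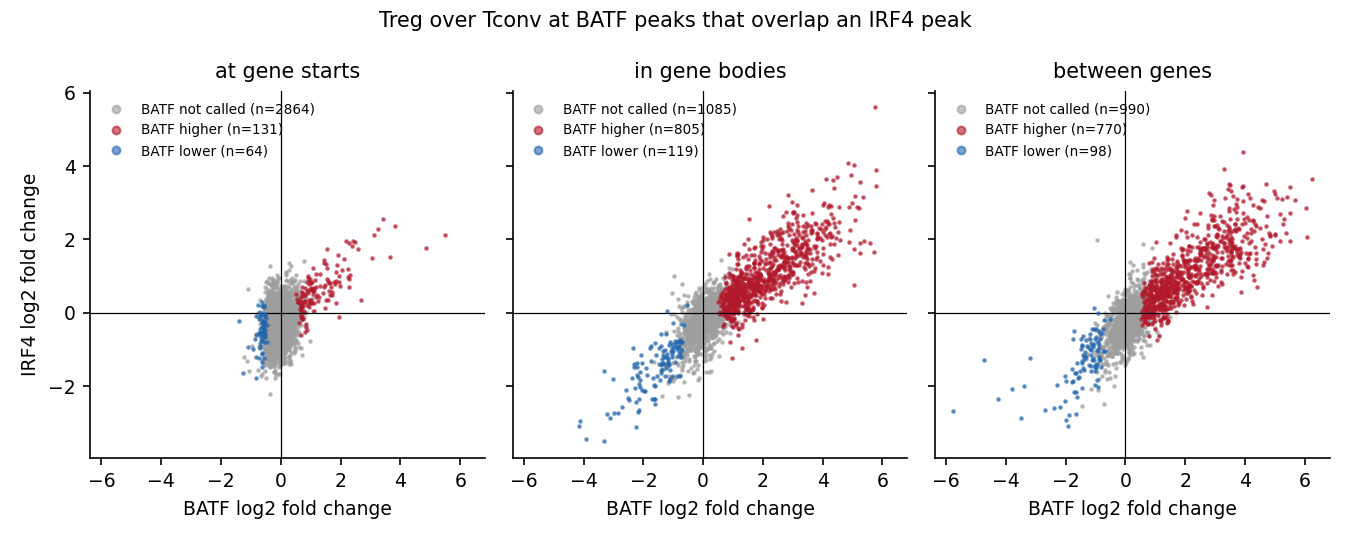
Log2 fold change of IRF4 (vertical) against that of BATF (horizontal), Treg over Tconv cells, at BATF peaks that overlap an IRF4 peak, by position. Points are red where BATF was higher, blue where it was lower and grey where it was not called; away from gene starts the blue points lie mostly below 0 on both axes, and at gene starts their median IRF4 change is -0.55.

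Foxp3 peaks, whose table includes the Batf-/- libraries, overlapped 40.5% of the higher, 19.8% of the lower and 15.2% of the uncalled BATF peaks. Fewer BATF peaks at gene starts had a Foxp3 peak. Between genes the shares were 42.1%, 23.5% and 27.1%, in gene bodies 42.1%, 24.1% and 28.5%, and at gene starts 24.1%, 6.67% and 7.21%. At the lower peaks away from gene starts the share with a Foxp3 peak was thus below that of uncalled peaks of the same class, a difference that was not tested.

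Gene lists showed where higher and lower peaks gathered. Counts are read against the shares over all peaks, 14.9% higher and 4.79% lower, with a median log2 fold change of -0.03, and no list was tested. Most peaks of the lists lay away from gene starts, where 28.1% of all peaks were higher and 7.62% lower. Against that second background, higher calls were fewer in resting and naive (41 of 187, 21.9%), Th1 and cytotoxic (9 of 38, 23.7%), cell cycle (8 of 31, 25.8%) and metabolism genes (6 of 36, 16.7%). They made up 31.5% to 61.5% in the other lists with over 10 such peaks, except for 0 of 13 in housekeeping genes. Peaks near Th17 genes had the largest share of higher calls among the lists with over 5 peaks: 17 of 31 were higher and 0 lower (0 also by edgeR and at an unadjusted p under 0.05), with a median of 1.11. They belonged to 8 of 18 genes, and no peak was assigned to Il17a or Il17f. Within Rora, a nuclear receptor gene, 2 neighbouring peaks were higher. The first read 72.6 and 91.5 against 3.48 and 3.57 and the second 108 and 124 against 4.65 and 9.28, so that the groups stood far apart in both. Near Hif1a, the hypoxia factor, a peak read 256 and 222 in the Treg and 46.5 and 65.0 in the Tconv libraries (log2 fold change 2.10, SE 0.23, limma adjusted p = 7.58e-06).

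Resting and naive T cell genes held both directions, with 41 higher and 18 lower of 213 peaks (median 0.10). Of the 18 lower peaks 8 belonged to Lef1 and 3 to Foxp1, which also had 7 of the 41 higher ones. The higher peaks included those of Foxp1 above and 1 within Ets1 at 341 and 346 against 72.0 and 39.3, and the lower ones Lef1, Ccr7 and Actn1. Th1 and cytotoxic genes were likewise divided, with 10 higher and 7 lower of 48 (median 0.11). Near Fasl, the ligand of Fas, 2 of 10 peaks were higher and 2 lower. A lower one read 25.9 and 13.6 in the Treg and 97.6 and 64.3 in the Tconv libraries (log2 fold change -2.02, SE 0.41, limma adjusted p = 0.00146). Near Prf1 one read 3.11 and 11.3 against 43.0 and 68.6, and near Gzmb, which encodes granzyme B, 16.6 and 24.8 against 61.6 and 60.7. Near Ccl5, a chemokine gene, BATF went the other way, at 96.4 and 90.3 against 5.81 and 14.3. Markers of CD8 and NK cells, which share Prf1, Ccl5 and Eomes with that list, had 2 higher and 2 lower of 12 peaks, and no peak was assigned to Cd8a, Ncr1 or Nkg7. The part of other cells in the lower peaks was not tested.

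Among called peaks of receptor and signalling genes most were higher. Cytokine receptor, JAK and STAT genes had 39 higher and 2 lower of 110 peaks (median 0.37). Within Il2rb, the beta chain of the IL-2 receptor (chromosome 15, 78494991 to 78495391), a peak read 243 and 283 in the Treg and 30.2 and 41.4 in the Tconv libraries (log2 fold change 2.86, SE 0.24, limma adjusted p = 7.11e-07). The 2 lower peaks lay near Il6st, the shared receptor chain gp130 (73.6 and 89.2 against 116 and 158), and near Ifngr1 (24.9 and 14.7 against 49.9 and 67.8), and over the alternatives their adjusted p reached 0.337 and 0.0824. Both genes also held higher peaks, 1 of 7 at Il6st and 2 of 5 at Ifngr1. TNF receptor and ligand genes had 25 higher and 3 lower of 68 (median 0.51). The lower ones lay at Fasl, with 2, and Tnfrsf1a, and Fasl also had 2 higher peaks. Of the lower calls at Fasl 1 reached an adjusted p of 0.386 over the alternatives. Near Tnfrsf9, the costimulatory receptor 4-1BB, a peak read 309 and 263 in the Treg and 30.2 and 15.0 in the Tconv libraries (log2 fold change 3.68, SE 0.30, limma adjusted p = 5.84e-07), while a peak in the TNF receptor gene Tnfrsf1a was lower, at 19.7 and 14.7 against 60.4 and 78.5 (limma adjusted p = 0.00153).

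Genes that restrain T cell receptor signalling had 36 higher and 5 lower of 126 peaks (median 0.39), the lower ones at Peli1, Cblb, Pag1, Rasa3 and Ubash3b. Higher peaks lay at Peli1 (2 of 6), Cblb (3 of 9) and Ubash3b (2 of 11) as well. The lower call at Cblb was lost in some alternatives, with an adjusted p of up to 0.408. A peak 51924 bp from Dusp4, a MAP kinase phosphatase gene, read 169 and 161 in the Treg and 4.65 and 8.57 in the Tconv libraries (log2 fold change 4.50, SE 0.41, limma adjusted p = 1.29e-06). In Ubash3b, which encodes a phosphatase of the receptor pathway, a peak was lower at 43.5 and 45.2 against 92.9 and 134 (limma adjusted p = 0.00239, and 0.0552 without Tconv replicate 2). TGF-beta pathway genes had 19 higher and 6 lower of 77 (median 0.20). The lower ones lay in Tgfbr3, which held most of them, Smad4 and Tgfbr2. Tgfbr2 also had 2 higher peaks among 11. Within Smad3, a receptor-activated SMAD gene, a peak read 371 and 305 against 61.6 and 71.4. In Smad4, the common partner, one read 23.8 and 29.4 in the Treg and 122 and 115 in the Tconv libraries (log2 fold change -2.12, SE 0.30, limma adjusted p = 7.29e-05). The 2 SMAD genes thus held peaks that moved in opposite directions, with no overlap of the groups at either.

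Chemokine receptor and integrin genes had 24 higher and 2 lower of 61 peaks (median 0.43). The lower 2 lay near Cxcr4, a homing receptor (17.6 and 12.4 against 46.5 and 54.3), and near Itga6, an integrin chain (13.5 and 21.5 against 55.7 and 58.6). Cxcr4 also had 2 higher peaks among 7, and Itga6 had 1 among 7. T follicular helper genes had 24 higher and 4 lower of 69 (median 0.35), with large rises within Tox, an HMG-box factor gene (104 and 117 against 6.97 and 2.14), and a fall near Il21, the cytokine of these cells (58.0 and 62.1 against 113 and 116). The fall near Il21 was not called without Tconv replicate 2 (limma adjusted p = 0.0642), nor without Treg replicate 1 or with DESeq2. The other lower peaks of that list lay at Cxcr4, Il6st and Pou2af1. The list of AP-1 and IRF family genes, Bach2 among them, had 29 higher and 2 lower of 91 (median 0.38), the lower ones near Irf4 and Bach2. Bach2 alone held 10 of the higher peaks, among 26. Both lower calls were lost in some alternatives, with an adjusted p of up to 0.188 for Irf4. Th2 genes had 5 and 1 of 16 (median 0.25), the lower one at the start of Rad50, a call that was lost in some alternatives (up to 0.317). Another peak, in the body of Rad50, was higher. It read 182 and 80.2 in the Treg and 20.9 and 20.0 in the Tconv libraries (log2 fold change 2.51, limma adjusted p = 0.000117). A peak within Gata3, the Th2 factor, read 96.4 and 96.0 against 18.6 and 15.7.

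Lists of general cell functions stayed near or below the share over all peaks. Cell cycle genes had 10 higher and 0 lower of 58 (median 0.03; 0 lower by edgeR and 3 at an unadjusted p under 0.05). Glucose, mTOR and lipid metabolism genes had 6 and 0 of 63 (median -0.03; 0 lower by edgeR, 4 unadjusted). Housekeeping genes had 0 called of 28 (median 0.04; 0 by edgeR, and 3 higher and 0 lower unadjusted). B cell markers had 1 higher of 3 peaks, at Pax5, and myeloid markers 2 higher of 5, at Cebpa and Cebpb, the last with an adjusted p of up to 0.068 over the alternatives.

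Peaks near microRNA genes were called less often than all peaks, a difference that was not tested and takes no account of position. Within 10000 bp of 300 of 1005 RefSeq hairpins there were 428 peaks, of which 35 (8.18%) were higher and 19 (4.44%) lower, below and near the shares over all peaks. Single ones among them stood out and were chosen after their values were seen. A peak 653 bp from Mir155, whose mature strand is shown above and which acts in lymphocyte activation, read 198 and 147 in the Treg and 30.2 and 20.7 in the Tconv libraries (log2 fold change 2.72, SE 0.30, limma adjusted p = 7.78e-06); its nearest protein-coding gene is Mrpl39. Of 5 peaks near Mir21a, 3 were higher and 2 were not called, and one of the higher ones, in the body of Vmp1, read 146 and 155 in the Treg and 39.5 and 40.0 in the Tconv libraries (log2 fold change 1.89, SE 0.25, limma adjusted p = 3.98e-05). Within 10000 bp of the cluster of Mir23a, Mir27a and Mir24-2, 2 of 3 peaks were higher. One read 163 and 161 against 73.2 and 92.1 and the other 104 and 79.1 against 49.9 and 33.6, the latter with an adjusted p of up to 0.14 over the alternatives. By Mir191 and Mir425 the gene start of Dalrd3 was lower, at 177 and 141 against 258 and 246 (limma adjusted p = 0.0162, and up to 0.126 over the alternatives).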

How the data were processed

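Each deposited table lists peaks with a normalised signal per library. The signal values were made by the authors; the tools, per the submitters' processing notes, were DiffBind 3.12.0, edgeR 3.38.4, MACS2 2.2.7.1 and Bowtie2 2.4.1 with build mm10. Their order and settings are not given in the sources used here. Within a library 100% of values were whole multiples of 1 read's worth (tolerance 0.01 reads), so reads could be recovered.

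Peaks, gene lists and comparisons were chosen with earlier results of these data known. Log2(value + 1) was fitted with limma 3.58.1 (R 4.3.3, trended spread, Benjamini-Hochberg adjustment over all peaks), for BATF over 2 against 2 and for IRF4 over 4 against 4 libraries. A fold change on this scale understates the change of low peaks. edgeR 4.0.16 on recovered reads called 2475 higher and 800 lower, and DESeq2 1.42.0 served as a further alternative. On simulated counts over the 16109 BATF peaks, 53% of 2-fold and 98% of 4-fold changes were recovered, with 1.95% of calls false, and over the 9134 IRF4 peaks 30% and 89%, with 2.46% false. In each simulation 100 peaks changed at each fold, as many up as down, and the library scaling was known. Errors of scaling are therefore not in these rates. The share of changed peaks was also far below the shares called in the data, 19.7% for BATF and 24.2% for IRF4. The Benjamini-Hochberg limit depends on that share, so these rates need not hold for the data. Standard errors rest on the spread between libraries, which includes counting noise, and do not model that noise separately. The text gives no fold for a single peak where a library held 3 reads or fewer.

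Positions came from protein-coding genes of RefSeq on GRCm38.p6, of which 79.9% had a start with a strand. For the other genes both ends were taken as starts. A gene was assigned to 97.5% of peaks. Peaks named in the text followed a rule: the 5 strongest, the 8 largest falls and rises among strong peaks, 4 of each per position class, 8 genes with both directions, 6 genes with the most lower peaks, up to 3 peaks per list and direction, and the 5 nearest opposite pairs; peaks outside it are said to be so. A few items that the rule names are not reported here. Libraries of a group differed by more than counting noise (chi-square per degree of freedom 3.24 and 3.19), so each counted as 1 sample. The second BATF table was not used here.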

Additional observations from a re-analysis of the deposited data

Results flagged for a closer look

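IRF4 libraries were examined for a single library far from the other 3 of its group at a part of the named peaks, in 30 groups of 4, of which chance picks about 1 in 20. At the lower BATF peak in Strada, 1 Tconv library read 50.5 in IRF4 and the other 3 read 33.9, 34.3 and 36.2. At the lower peak in Gramd3, 1 Tconv library read 55.7 and the other 3 at most 29.7. Near Slc9a9, 1 Treg library read 34.9 and the other 3 read 16.0, 16.6 and 17.0.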

How the results depend on the processing

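Of 156 calls among the 167 named peaks 109 were kept in every alternative that tested the peak. Weak named peaks were left out, not tested, where peaks below the 25th percentile of the mean were removed. Without peaks below the 25th percentile of the mean, calls were 1443 higher and 328 lower in all, 656 and 113 in gene bodies, and 636 and 87 between genes, with 23 genes of both directions and 8 opposite neighbours within 10000 bp. Quantile normalisation gave 1291 lower calls in all, 330 at gene starts, 577 in gene bodies and 383 between genes, with 48 opposite neighbours. DESeq2 gave 444 lower calls in all, 137 higher and 69 lower at gene starts, 217 lower in gene bodies and 157 between genes, with 51 genes of both directions and 10 opposite neighbours. A spread without trend gave 65 lower calls at gene starts, and centring on the gene start median, added after seeing the data, 69. A gene start window of 2500 bp gave 363 higher calls. Higher BATF peaks with lower IRF4 numbered 2 with a pseudocount of 8, 3 with the replicate block and 0 with a reciprocal overlap of 50%. Leaving out 1 library at a time gave 56 to 93 genes of both directions, 11 to 21 opposite neighbours, 131 to 216 higher and 78 to 161 lower calls at gene starts, and 0 to 3 higher BATF peaks with lower IRF4. Same-numbered BATF libraries correlated in their deviations at 0.0882. With 2 libraries a group this is a single value, which cannot show whether the numbers pair them. The replicate block gave 2655 higher and 1149 lower calls in all, with 413 lower calls at gene starts and 47 opposite neighbours. Lower calls outnumbered higher ones at gene starts under quantile normalisation, the block (267 higher), a pseudocount of 8, a window of 500 bp and without either Treg library. Centring turned the median over all peaks from -0.03 to 0.08. No called named peak changed sign, and the cause of these shifts was not tested. With 2 libraries a group, 2-fold changes were often missed in the simulation, whose rates need not hold for the data. Weak peaks rest on few reads.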
